A study of Nasonia vitripennis with 51 samples.

Results

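Sucrose-fed females of the parasitoid wasp Nasonia vitripennis were sampled over a harvest time course for whole-genome bisulphite sequencing, which reads each cytosine as methylated or unmethylated. The 18 samples of the sucrose regime were taken of 51 samples in all, by the feeding regime in the labels. Females of AsymC, a wild-type laboratory strain free of Wolbachia, had been fed 20% sucrose for 24 h and were harvested 0, 24 or 48 h after feeding. Each harvest time had 6 samples, namely 3 of heads and 3 of bodies (thorax with abdomen), and each sample was a pool of 10 females. No sample of the course had received 5-aza-2'-deoxycytidine (5-aza-dC), the inhibitor of DNA methyltransferases that was added to the sucrose at 10 µM in the other 33 samples, for 24 h in 16 and for 48 h in 17. Later harvests were later both after feeding and in adult life, so time since feeding and age cannot be told apart. Each harvest time had its own females, so differences between these sets of females cannot be told apart from time either. Rises and falls below are differences between samples of different females. The age of the females and their food after the sucrose are not given in the labels.

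All CpGs with reads in every one of the 18 samples were used, which gave 4108057 of the 4150376 CpGs in the table (99.0%). Every one of them had at least 3 reads in each sample. Mean coverage per CpG and sample was between 18.1 and 31.1 reads. The methylation level of a CpG in a sample is the share of its reads that were methylated, and differences between levels are given in percentage points.

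In insects, DNA methylation falls almost entirely on CpGs within genes, and mostly on exons of genes that are expressed in many cell types. Maintenance methyltransferases of the Dnmt1 family copy the marks onto new DNA strands after replication, and Dnmt3 enzymes add marks to unmethylated sites. Nasonia carries enzymes of both families, and its CpGs are typically either unmethylated or methylated in nearly every cell. No annotation of the genome build of the table was used, because the build is not given in the sources used here. Positions are therefore those of the table, and no gene is named.

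Most CpGs of the sucrose-fed females were nearly unmethylated, and methylated CpGs included many of intermediate level. Of the 4108057 CpGs, 3417425 (83.2%) had a mean level under 2% over the 18 samples, and these were used as a background class. Another 625420 CpGs had means of 2 to 10%, 42785 of 10 to 20%, 6256 of 20 to 50% and 4735 of 50 to 80%. The remaining 11436 CpGs had means of 80% or more. The 16171 CpGs with a mean of at least 50% (0.394% of all) are called methylated CpGs below. Of these, 8322 lay in 1014 clusters, each of at least 5 methylated CpGs at most 200 bp from the next. A cluster had a median of 7 CpGs, 253.5 bp and 187 reads per sample.

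Several features of the libraries bear on the comparisons. In 3 body samples, 1 per harvest time, the title does not match the time recorded among the sample characteristics, by which all samples were grouped. The background level stood apart in some libraries. It was 0.930, 0.970 and 1.04% in heads at 24 h, while it was 0.455 to 0.565% in heads at 0 h and 0.373 to 0.702% in heads at 48 h. Body replicate 3 had 1.22% at 0 h and 1.11% at 24 h, against 0.470 to 0.537% in the other body samples of those times, and these 2 libraries also had the highest coverage of the body samples (30.1 and 31.1 reads per CpG). Some head and body samples of 1 harvest time also varied together. After the mean of its 3 replicates was subtracted from each sample, the correlation over the 1014 clusters between a head and a body sample of the same time reached 0.329 (heads replicate 3 with bodies replicate 2, at 24 h), 0.265 (heads replicate 1 with bodies replicate 3, at 24 h) and 0.230 (replicates 1, at 0 h). Between different times it lay between -0.109 and 0.0915 in all 54 pairs, while the 27 pairs of the same time lay between -0.26 and 0.329, with 6 above 0.1. Deviations of 3 replicates sum to 0, so high and low correlations within a time balance each other. The labels do not say whether heads and bodies came from the same females. Should they share pools, tests of harvest time over both tissues count a pool more than once and their p-values are too small. The results within heads and within bodies are therefore given beside them. Tests of the difference between heads and bodies would then ignore a pairing, and how that would move their p-values was not tested.

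The first question was whether the level at methylated CpGs changed over the course. Over heads and bodies together it did not pass the test. At 0 h the level had a lowest value of 79.5%, a median of 83.6% and a highest of 87.4% over the 6 samples. At 24 h these values were 80.2, 84.0 and 87.6%, and at 48 h they were 80.3, 83.6 and 87.0%. Each range spans both tissues, and the ranges of the 3 times overlap almost fully. The means were 83.5, 84.0 and 83.7% at 0, 24 and 48 h. A two-sided exact permutation test of any difference among the times, with times exchanged within tissue, gave p = 0.258. The difference was 0.412 points between 24 h and 0 h (exact p = 0.04, adjusted p = 0.12 over the 3 pairs of times) and 0.134 points between 48 h and 0 h (exact p = 0.635). With the background level of each sample subtracted, the 24 h minus 0 h difference was 0.189 points (exact permutation p = 0.575). When the background was taken out of unmethylated reads only, it was 0.389 points (exact permutation p = 0.07).

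The mean levels of heads and bodies differed in opposite directions between 0 h and 48 h, however, and the gap between them was smaller at the later times. Heads had 87.4, 87.4 and 87.4% at 0 h, 87.2, 87.4 and 87.6% at 24 h, and 87.0, 87.0 and 86.4% at 48 h. All 3 head samples at 48 h were below all head samples of the earlier times. Bodies had 79.8, 79.7 and 79.5% at 0 h, 80.2, 80.4 and 80.9% at 24 h, and 80.3, 80.7 and 80.8% at 48 h. All body samples of the later times were above all 3 body samples at 0 h. The level of heads minus that of bodies was 7.71 points at 0 h, 6.93 points at 24 h and 6.22 points at 48 h.

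**Figure D1:**
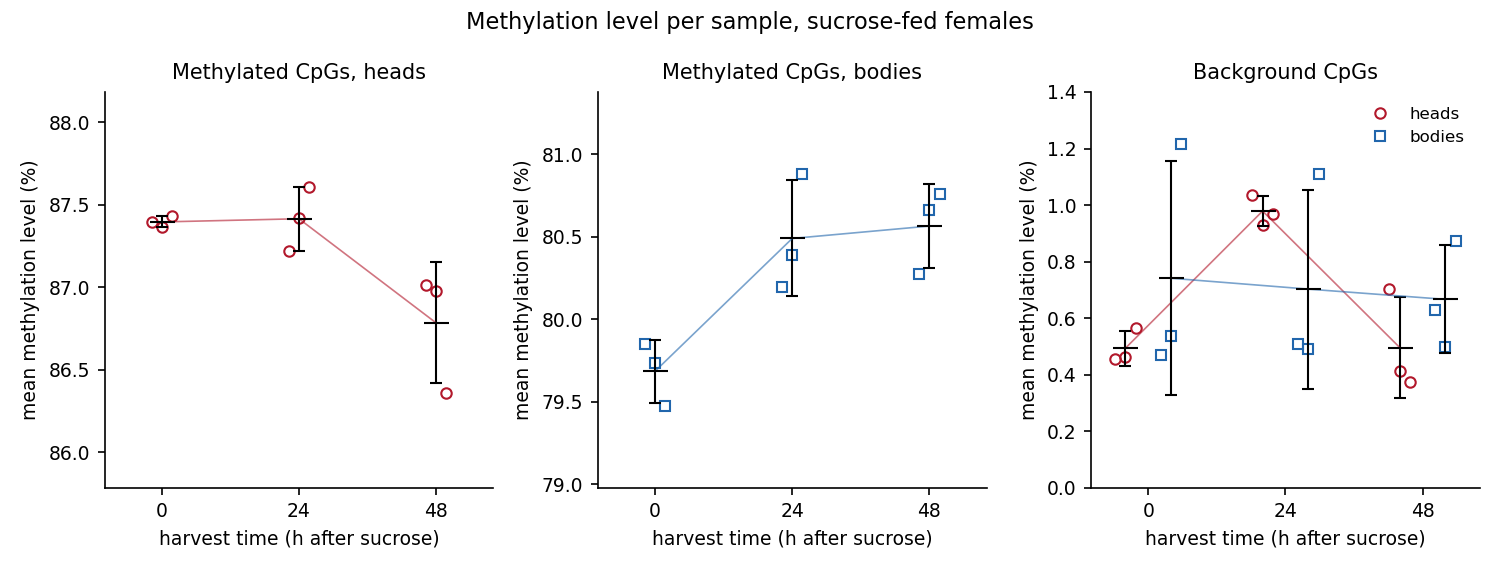
Mean methylation level of each sample over methylated CpGs in heads (left) and bodies (middle) and over background CpGs (right), in percent, against harvest time in hours. Open symbols are samples (n = 3 per tissue and time), black bars are means ± SD, and the left and middle axes do not start at 0. Heads at 48 h lie below the other heads, bodies at 0 h lie below the other bodies, and the background is highest in heads at 24 h and in 2 body samples.

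The gap was 1.49 points smaller at 48 h than at 0 h, a change of -0.612 points in heads and of 0.880 points in bodies. Its exact permutation p was 0.005, which is the smallest that the 400 arrangements allow (adjusted p = 0.015 over the 3 pairs of times). That test was not among those planned for the level, and it treats heads and bodies as separate pools. Should they share pools, 3 pools against 3 would allow 20 arrangements and an exact permutation p no lower than 0.1. The pooled SD between replicates of 1 tissue and time was 0.258 points. The change of the gap was -0.786 points between 24 h and 0 h (exact p = 0.065) and -0.707 points between 48 h and 24 h (exact p = 0.09). Within heads alone, any difference among the times had an exact p of 0.0286, and within bodies alone an exact p of 0.0321. The smallest p that such a test of 9 samples can give is 0.00357. The gap at 48 h was smaller than at 0 h in every alternative that was run, by 1.28 to 1.72 points. Heads nevertheless stayed above bodies throughout: the lowest head sample was 7.52 points above the highest body sample at 0 h, 6.34 points at 24 h and 5.60 points at 48 h.

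The narrowing was present in each class of CpGs with means of 20% or more. Among CpGs of 50 to 80%, heads averaged 73.9 ± 0.172, 73.8 ± 0.309 and 72.6 ± 0.591% at 0, 24 and 48 h, and bodies averaged 61.5 ± 0.265, 62.5 ± 0.759 and 62.4 ± 0.412% (SD, n = 3). The gap in this class was 2.20 points smaller at 48 h than at 0 h (exact permutation p = 0.005, adjusted p = 0.045 over 6 classes and 3 pairs of times). Among CpGs of 80% and above it was 1.2 points smaller (exact permutation p = 0.005, adjusted p = 0.045). Among CpGs of 20 to 50% it was 2.86 points smaller, which missed the threshold after adjustment (exact permutation p = 0.015, adjusted p = 0.09). No class passed the test for any difference among the times over both tissues, with adjusted exact permutation p-values of 0.329 to 0.498. The background class differed among times within heads (exact permutation p = 0.0357), where its level was highest at 24 h. The part of the background in the other classes was examined by subtracting it: the gap was then 1.57 points smaller at 48 h than at 0 h.

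Most CpGs that were highly methylated at 0 h were also highly methylated in the samples of 48 h. CpGs with at least 30 reads summed over the 3 replicates of a tissue at every time were classed by their pooled level, and 3936161 CpGs in heads and 3881083 in bodies qualified. In heads, 12534 CpGs were at 80% or more at 0 h, and 11492 of them (91.7%) were also at 80% or more at 48 h. In bodies, 9176 CpGs were at 80% or more at 0 h, and 8113 of them (88.4%) were so at 48 h. Of these initially high CpGs, 25 in heads and 22 in bodies were below 50% at 48 h. None of them was at 20% or less at 24 h or 48 h in either tissue. Of the CpGs at 20% or less at 0 h, 26 of 3911746 in heads and 60 of 3856516 in bodies were at 50% or more at 48 h. Only 2 of these, both in bodies, reached 80%. These counts describe pooled levels and carry no test.

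Samples harvested at different times were slightly farther apart than samples harvested together. The distance between 2 samples was the mean absolute difference of their levels over the 1014 clusters. Within a tissue, it averaged 4.67 points between different times (54 pairs) and 4.48 points within a time (18 pairs), a difference of 0.191 points (one-sided exact permutation p = 0.000115). The difference was 0.213 points in heads alone (one-sided exact permutation p = 0.00357) and 0.169 points in bodies alone (one-sided exact permutation p = 0.0143). In heads, samples of 48 h lay 4.38 points from those of 0 h and samples of 24 h lay 4.07 points from those of 0 h, while replicates of 0 h lay 4.07 points from each other. In bodies the same distances were 5.31, 4.96 and 4.96 points. By comparison, head and body samples of the same time were 7.62 points apart on average (27 pairs). Of the sum of squares of a cluster, harvest time held a median of 5.70%, tissue 46.4%, their interaction 3.99% and the spread between replicates 37.6%. Summed over all clusters, harvest time held 12.1% of the squares, tissue 44.9%, their interaction 5.28% and replicates 37.7%. These shares rest on unequal degrees of freedom: harvest time and the interaction had 11.8% of them each, tissue 5.88% and replicates 70.6%. Per degree of freedom, the pooled mean square was 36.3 for harvest time, 269 for tissue, 15.8 for the interaction and 18.8 for replicates.

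Few clusters differed with harvest time. A quasi-binomial model of methylated and total reads, with tissue as covariate, found a difference among the 3 times in 31 of 1014 clusters (3.06%, adjusted p under 0.05). At an unadjusted p under 0.05 there were 145 clusters, or 14.3%. Of the 31 clusters, 30 had the same direction of the 48 h minus 0 h difference in heads and in bodies, against 571 of all 1014 (56.3%). Selection for a difference over both tissues favours a shared direction, so that count is a description. Their absolute 48 h minus 0 h difference had a median of 10.1 points, while it was 1.73 points over all clusters. Levels were higher at 48 h than at 0 h in 12 of the 31 and lower in 19, while 55.0% of all 1014 clusters were higher at 48 h.

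Most pairwise calls involved the 48 h samples. Between 48 h and 0 h, 21 clusters passed (2.07%), 10 with a rise and 11 with a fall. Between 48 h and 24 h, 25 clusters passed (2.47%), 8 with a rise and 17 with a fall. Between 24 h and 0 h, 1 cluster passed (0.0986%), with a fall, while 94 clusters (9.27%) had an unadjusted p under 0.05. In 28 of the 31 clusters, the level at 48 h was farther from that at 0 h than the level at 24 h was. The 31 were called on these same differences, mostly with the 48 h samples, so that count is a description and shows no steady drift. Clusters of intermediate level were called more often: 16 of 192 clusters (8.33%) with a mean under 80% were called, against 15 of 822 clusters (1.82%) with a mean of 80% or more. That mean is over the same samples, so a large difference between times itself moves a cluster toward an intermediate mean. These shares are therefore a description.

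Within a single tissue the counts were smaller. Within heads, 2 clusters passed (0.197%), and within bodies 15 passed (1.48%). Of the 31 clusters, 2 passed within heads and 13 within bodies. The same clusters tested with limma on arcsine-square-root proportions gave 11 calls over both tissues, 1 within heads and 2 within bodies. Leaving out 1 sample at a time gave 20 to 39 calls over both tissues, with the lowest count without body replicate 2 of 48 h. Within heads the count was 9 without head replicate 1 of 48 h, 6 without head replicate 1 of 0 h and 0 without head replicate 3 of 48 h. It was 1 without head replicate 2 of any time or head replicate 1 of 24 h. Within bodies it was 8 without replicate 2 of 0 h, 5 without replicate 1 or 2 of 48 h and 3 without replicate 3 of 48 h. In heads and in bodies separately, all samples of 48 h lay on the same side of all samples of 0 h in 19 clusters (1.87%), and 9 of these were among the 31. The same held of 24 h and 0 h in 7 clusters (0.69%) and of 48 h and 24 h in 18 clusters (1.78%).

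Tissue differences in the same samples were far more frequent. Heads differed from bodies in 841 of 1014 clusters (82.9%), and 839 of these were higher in heads. The time course itself differed between heads and bodies in 0 clusters (0%) by the quasi-binomial model and in 0 by limma. At an unadjusted interaction p under 0.05 there were 32 clusters (3.16%). For 865 of the 1014 clusters, the 95% interval of the 48 h minus 0 h difference lay within 10 points on either side of 0, and for 308 within 5 points. The median standard error of that difference was 2.01 points.

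**Figure D2:**
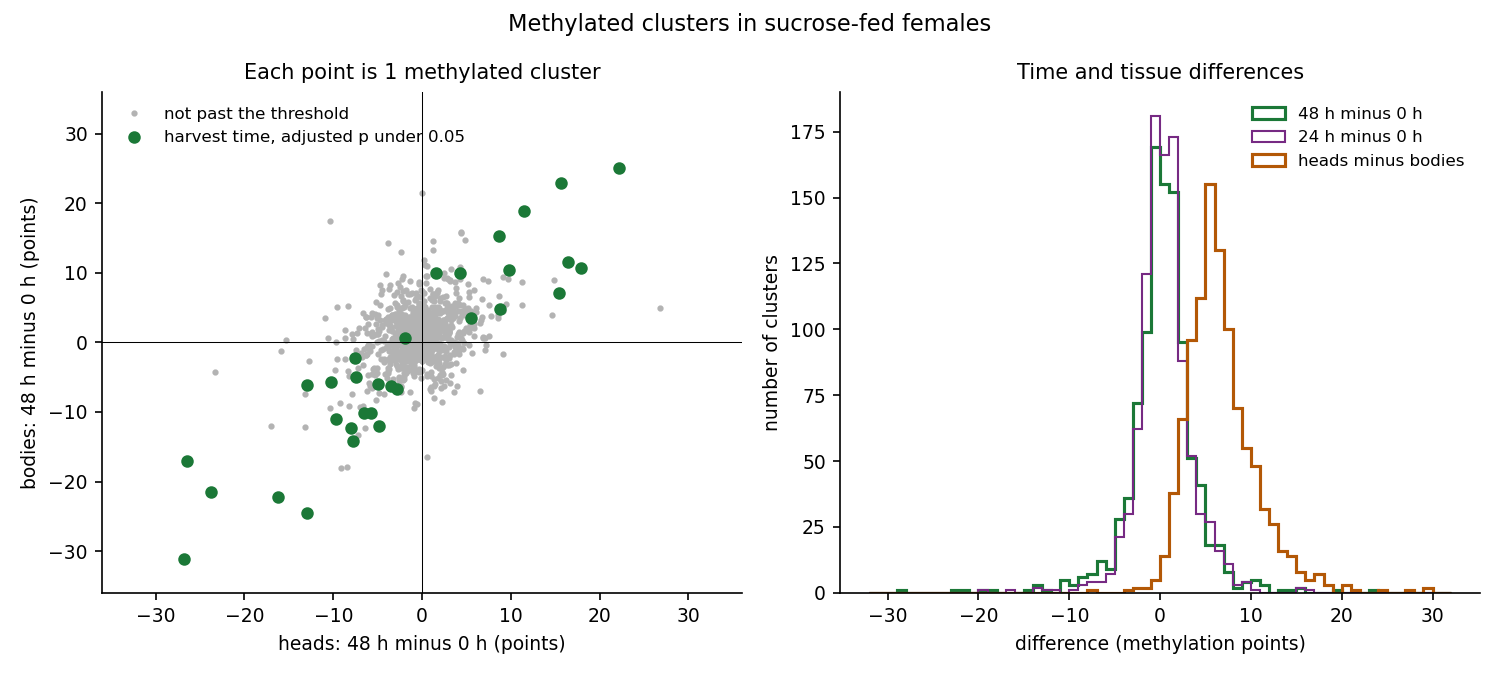
Differences at the 1014 methylated clusters, in methylation points. The left panel plots 48 h minus 0 h in bodies against the same in heads, with the 31 clusters called for harvest time in green, and 30 of them lie in the quadrants of equal direction. The right panel shows the number of clusters by size of the 48 h minus 0 h, 24 h minus 0 h and heads minus bodies differences, of which the last is centred near 6 points.

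The largest fall was on scaffold GL340968. On this scaffold (869091 to 869316), a cluster of 5 CpGs had 81.2, 95.9 and 92.9% in heads and 86.3, 88.2 and 86.1% in bodies at 0 h. At 24 h it had 88.2, 87.9 and 65.5% in heads and 86.7, 69.5 and 80.6% in bodies. At 48 h it had 69.0, 58.8 and 61.6% in heads and 54.3, 61.1 and 51.7% in bodies, so that all samples of 48 h were below all samples of 0 h. The level fell by 29.0 ± 3.93 points (SE) between 48 h and 0 h (adjusted p = 2.99e-05 for any difference among times by the quasi-binomial model), and each of its 5 CpGs was lower at 48 h, by 6.12 to 44.9 points in size. Within bodies alone it passed (adjusted p = 0.000393), and within heads alone it had an adjusted p of 0.0978.

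On chromosome 1 (2227410 to 2227553), a cluster of 5 CpGs had 82.2, 78.8 and 83% in heads and 66.8, 85.1 and 75.3% in bodies at 0 h. At 24 h, heads had 77.8, 79.3 and 82.4% and bodies had 74.1, 80.4 and 66.7%. At 48 h, heads had 56.0, 57.4 and 59.5% and bodies had 63.4, 47.7 and 51.6%, and again all samples of 48 h were below all samples of 0 h. The fall between 48 h and 0 h was of 22.6 points in size (difference -22.6 ± 3.09, SE, adjusted p = 4.67e-05 for any difference among times). It passed within heads (adjusted p = 0.00538) and within bodies (adjusted p = 0.0331). Its CpGs were not uniform: 3 were lower at 48 h, the most by 52.1 points (-52.1), while 2 were higher, the most by 3.44 points.

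The other cluster that passed within each tissue, named after its values were seen, lay on scaffold GL340802 (170689 to 171423) and held 11 CpGs. It averaged 72.2 ± 3.42, 77.0 ± 3.04 and 61.9 ± 3.46% at 0, 24 and 48 h (SD, n = 6), with a 48 h minus 0 h difference of -10.3 ± 1.93 points (SE, adjusted p = 4.67e-05 for any difference among times). The third of the largest falls, at 5 CpGs on scaffold GL340852 (256901 to 256956), was smaller relative to the spread of its samples. It averaged 75.4 ± 9.09, 67.9 ± 10.3 and 53.7 ± 12.6% at 0, 24 and 48 h, with a difference of -21.7 ± 5.72 points between 48 h and 0 h (SE, adjusted p = 0.0436 for any difference among times). It passed in neither tissue alone, with an adjusted p of 0.221 in heads and 0.552 in bodies.

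The 1 cluster that passed between 24 h and 0 h was named after its values were seen. It held 6 CpGs within 54 bp on scaffold GL341086 (126812 to 126865). Heads had 86, 97.3 and 91.8% at 0 h, 78.1, 88.3 and 65.6% at 24 h, and 85.5, 92.9 and 91.0% at 48 h. Bodies had 88.6, 96.1 and 93.8% at 0 h, 79.8, 60.7 and 63.9% at 24 h, and 95.8, 94.4 and 90.1% at 48 h. The 24 h minus 0 h difference was -19.5 ± 3.64 points (SE, adjusted p = 0.00333), and the level at 48 h differed from that at 0 h by -0.653 ± 3.64 points. All body samples of 24 h were below those of the other times, whereas heads overlapped.

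The largest rise was at 6 CpGs on chromosome 2 (12329254 to 12329627). Heads had 56.6, 63.9 and 49.0% at 0 h, 54.1, 62.3 and 74.5% at 24 h, and 70.8, 86.1 and 79.2% at 48 h. Bodies had 44.5, 51.3 and 52.7% at 0 h, 67.8, 61.0 and 44.7% at 24 h, and 76.8, 73.7 and 73.4% at 48 h. All samples of 48 h were above all samples of 0 h, and the level rose by 23.7 ± 4.05 points (SE, adjusted p = 0.000257 for any difference among times). All 6 of its CpGs were higher at 48 h, by 10.5 to 37.9 points. It passed within bodies (adjusted p = 0.00878) and had an adjusted p of 0.166 within heads.

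The next rises were on chromosomes 2 and 1. The 6 CpGs on chromosome 2 (2277086 to 2277407) averaged 57.3 ± 11.2, 74.1 ± 10.0 and 76.6 ± 5.75% at 0, 24 and 48 h (SD, n = 6), a rise of 19.3 ± 4.21 points between 48 h and 0 h (SE, adjusted p = 0.00439 for any difference among times). Most of that difference was already present at 24 h (16.8 points), although the 24 h minus 0 h contrast had an adjusted p of 0.0977. The 14 CpGs on chromosome 1 (12602283 to 12602894) averaged 65.7 ± 9.44, 68.8 ± 6.36 and 80.9 ± 5.47%, a rise of 15.2 ± 4.00 points (SE, adjusted p = 0.0076), and 13 of the 14 CpGs were higher at 48 h. Both clusters passed within bodies (adjusted p = 0.0214 and 0.00602) and neither within heads (0.382 and 0.512).

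**Figure D3:**
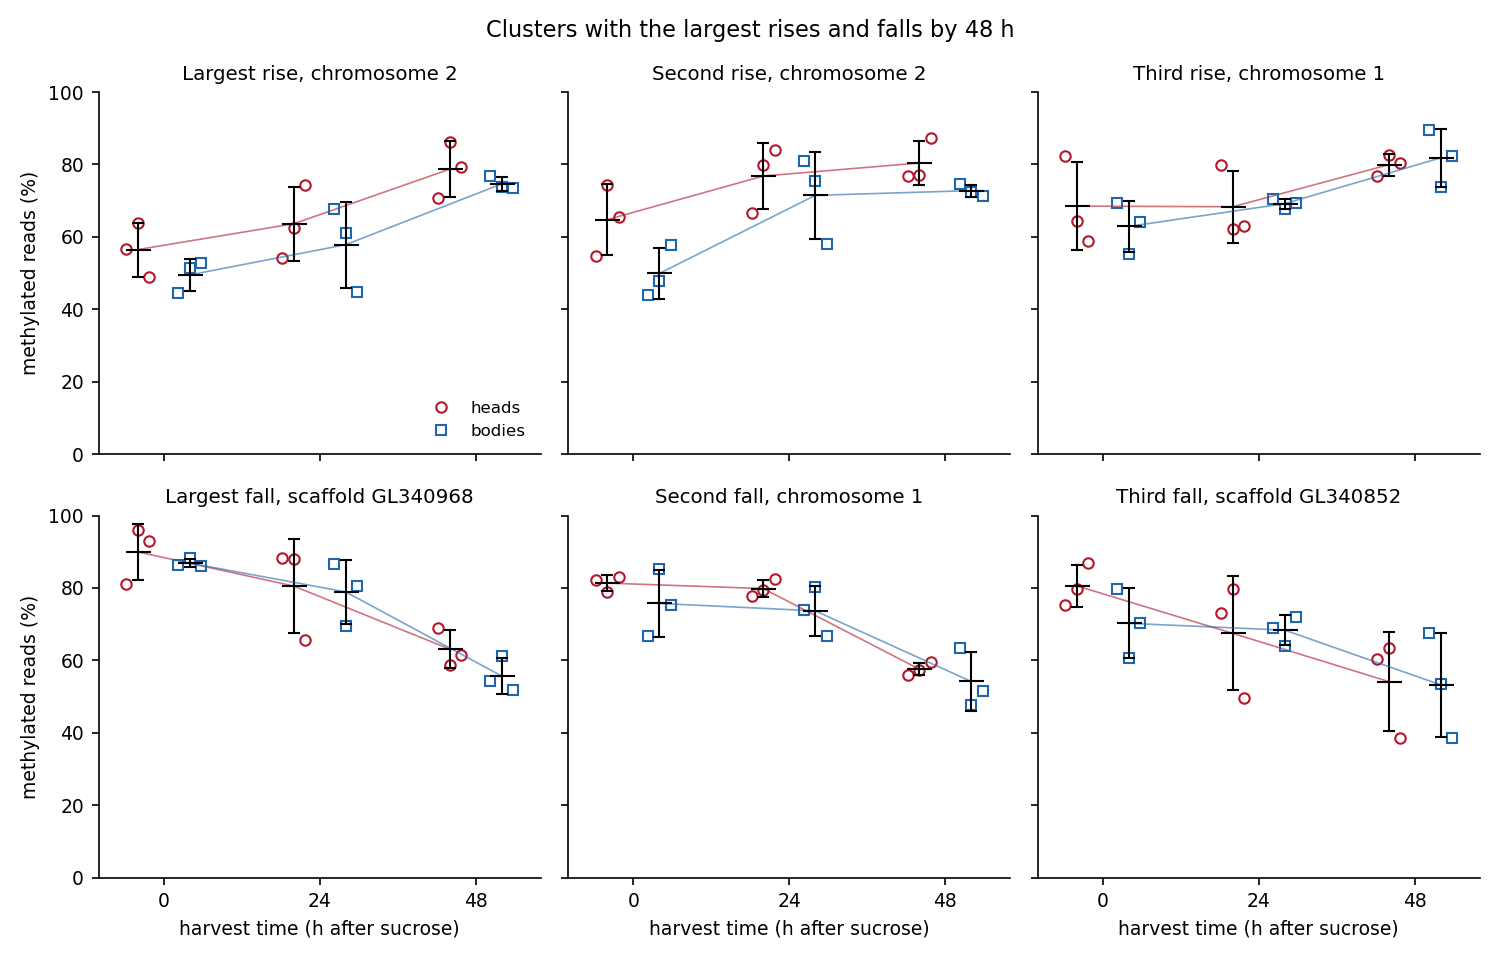
Methylated reads in percent in each sample against harvest time in hours, for the 3 clusters with the largest rises (top) and the 3 with the largest falls (bottom) among those called. Open symbols are samples (n = 3 per tissue and time), and black bars are means ± SD. The samples of 48 h lie apart from those of 0 h in the largest rise and in the 2 largest falls, and overlap with them in the third fall.

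The clusters with the most CpGs, which have the most reads, showed no call for harvest time. The cluster of 35 CpGs on chromosome 3 (16608284 to 16609596) had 974 reads per sample at the median. It averaged 84.8 ± 6.70, 84.6 ± 7.54 and 86.0 ± 7.12% at 0, 24 and 48 h (SD, n = 6, heads and bodies together), and its 48 h minus 0 h difference was 1.19 points with a 95% interval of -2.01 to 4.39 points. Heads exceeded bodies there by 12.4 points (adjusted p = 2.4e-12). The 29 CpGs on scaffold GL341022 (927959 to 928583) differed by -0.0988 points between 48 h and 0 h (95% interval -2.78 to 2.58), and the 29 CpGs on chromosome 1 (5858023 to 5858942) by 0.683 points (95% interval -3.11 to 4.47).

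At single CpGs, the same model was fitted to the 33446 CpGs with at least 10 reads in every sample and a mean level of at least 10%, which had a median of 24 reads. It found a difference among harvest times at 724 CpGs (2.16%). Within heads 163 passed (0.487%) and within bodies 354 passed (1.06%), and 74 CpGs passed within each tissue. With limma on arcsine-square-root proportions, 266 passed over both tissues, 0 within heads and 3 within bodies. At an unadjusted p under 0.05 by the quasi-binomial model there were 2665 CpGs (7.97%) within heads and 2728 (8.16%) within bodies. Within heads the count was 380 without replicate 1, 70 without replicate 2 and 50 without replicate 3 of 48 h. Within bodies it was 216, 189 and 228 without these replicates of 48 h. Between 48 h and 0 h, 484 CpGs passed (1.45%), 248 with a rise and 236 with a fall. Between 24 h and 0 h, 111 passed (0.332%), and between 48 h and 24 h, 448 passed (1.34%). The time course differed between tissues at 0 CpGs (0%) by the quasi-binomial model and 0 by limma. At an unadjusted interaction p under 0.05 there were 1582 CpGs (4.73%). Heads differed from bodies at 1987 CpGs (5.94%). In both tissues and in the same direction, samples did not overlap at 187 CpGs between 24 h and 0 h (0.559%), at 385 between 48 h and 0 h (1.15%) and at 400 between 48 h and 24 h (1.2%).

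The called CpGs were mostly of intermediate level. Calls were made at 279 of 2614 CpGs (10.7%) with a mean of 20 to 50% and at 201 of 2887 (6.96%) with a mean of 50 to 80%. They were made at 197 of 20749 (0.949%) with a mean of 10 to 20% and at 47 of 7196 (0.653%) with a mean of 80% or more. The classes use the mean over the same samples, so a large difference between times itself moves a CpG toward an intermediate class. These shares are therefore a description. The median absolute 48 h minus 0 h difference was 25.9 points at called CpGs of 20 to 50% and 6.98 points at all tested CpGs of that class. Clusters held similar shares: 16.6% of the called and 17.0% of the tested CpGs lay in one. Of the 724, 365 had another called CpG within 200 bp. Of the 232 pairs of neighbouring called CpGs at most 200 bp apart, 204 had the same direction between 48 h and 0 h. Neighbours share reads, so they are not independent. Calls were spread over the genome, at 1.95 to 2.61% of the tested CpGs of each of chromosomes 1 to 5 and at 1.89% on unplaced scaffolds.

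The single CpG with the largest fall averaged 4.80% in the samples of 48 h. The CpG at position 24527665 of chromosome 3 had 82.4, 67.6 and 77.4% in heads and 55.9, 61.9 and 74.1% in bodies at 0 h. At 24 h it had 61.3, 51.7 and 59.1% in heads and 45.8, 57.1 and 36.4% in bodies, and at 48 h it had 16.7, 6.25 and 0% in heads and 0, 0 and 5.88% in bodies. The samples of 48 h were below all others in both tissues. The level fell by 65.1 ± 4.54 points between 48 h and 0 h (SE, adjusted p = 2.86e-10 for any difference among times), at a median of 23 reads per sample. It passed within heads (adjusted p = 4.97e-06) and within bodies (adjusted p = 1.38e-05). A CpG 4 bases further on, at position 24527669, had the third largest fall, of 56.7 points in size (-56.7 ± 7.17, SE, adjusted p = 1.95e-06). Its level at 48 h averaged 14.9 ± 13.4% (SD, n = 6), with a highest sample of 33.3%.

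The CpG at position 3113004 of chromosome 1 showed how far pools of 1 time could differ. It had 76.0, 88.9 and 80.6% in heads and 80, 96.4 and 81.2% in bodies at 0 h. At 24 h it had 40.6, 75.7 and 37.5% in heads and 65.0, 22.2 and 25.6% in bodies, so that 1 head and 1 body sample stood above the others. At 48 h it had 38.1, 13.0 and 17.6% in heads and 4.55, 57.1 and 7.14% in bodies. The difference between 48 h and 0 h was -60.9 ± 9.21 points (SE, adjusted p = 6.49e-07).

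The largest rises were at CpGs of low initial level. Rises of this size are possible only from a low level, so this follows from their selection. The CpG at position 882740 of scaffold GL340840 had 20.0, 25.0 and 3.51% in heads and 20.0, 9.62 and 10.4% in bodies at 0 h. It had 41.0, 51.6 and 45.7% in heads and 51.9, 44.1 and 15.4% in bodies at 24 h, and 41.0, 92.9 and 82.7% in heads and 78.6, 37.7 and 75.7% in bodies at 48 h. All samples of 48 h were above all samples of 0 h, and the rise was of 53.3 ± 8.48 points (SE, adjusted p = 6.66e-08). Within 200 bp lay 16 other CpGs with a mean of at least 10%, and 14 of them were also higher at 48 h.

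Of the other 2 large rises, the CpG at position 16187704 of chromosome 3 averaged 5.06 ± 6.39, 8.44 ± 10.6 and 58.3 ± 22.2% at 0, 24 and 48 h (SD, n = 6), a rise of 53.2 ± 7.23 points between 48 h and 0 h (SE, adjusted p = 1.38e-08). The CpG at position 28074284 of chromosome 2 averaged 16.6 ± 10.9, 32.6 ± 15.3 and 68.1 ± 21.1%, a rise of 51.4 ± 8.17 points (SE, adjusted p = 9.75e-07). All 9 of its neighbours within 200 bp that had a mean of at least 10% were higher at 48 h as well. Head replicate 1 of 48 h was close to the samples of 0 h at both CpGs. It had 14.8% at the CpG on chromosome 3, where the highest sample of 0 h had 14.3%, and 27% at the CpG on chromosome 2, where the highest sample of 0 h had 32.4%.

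**Figure D4:**
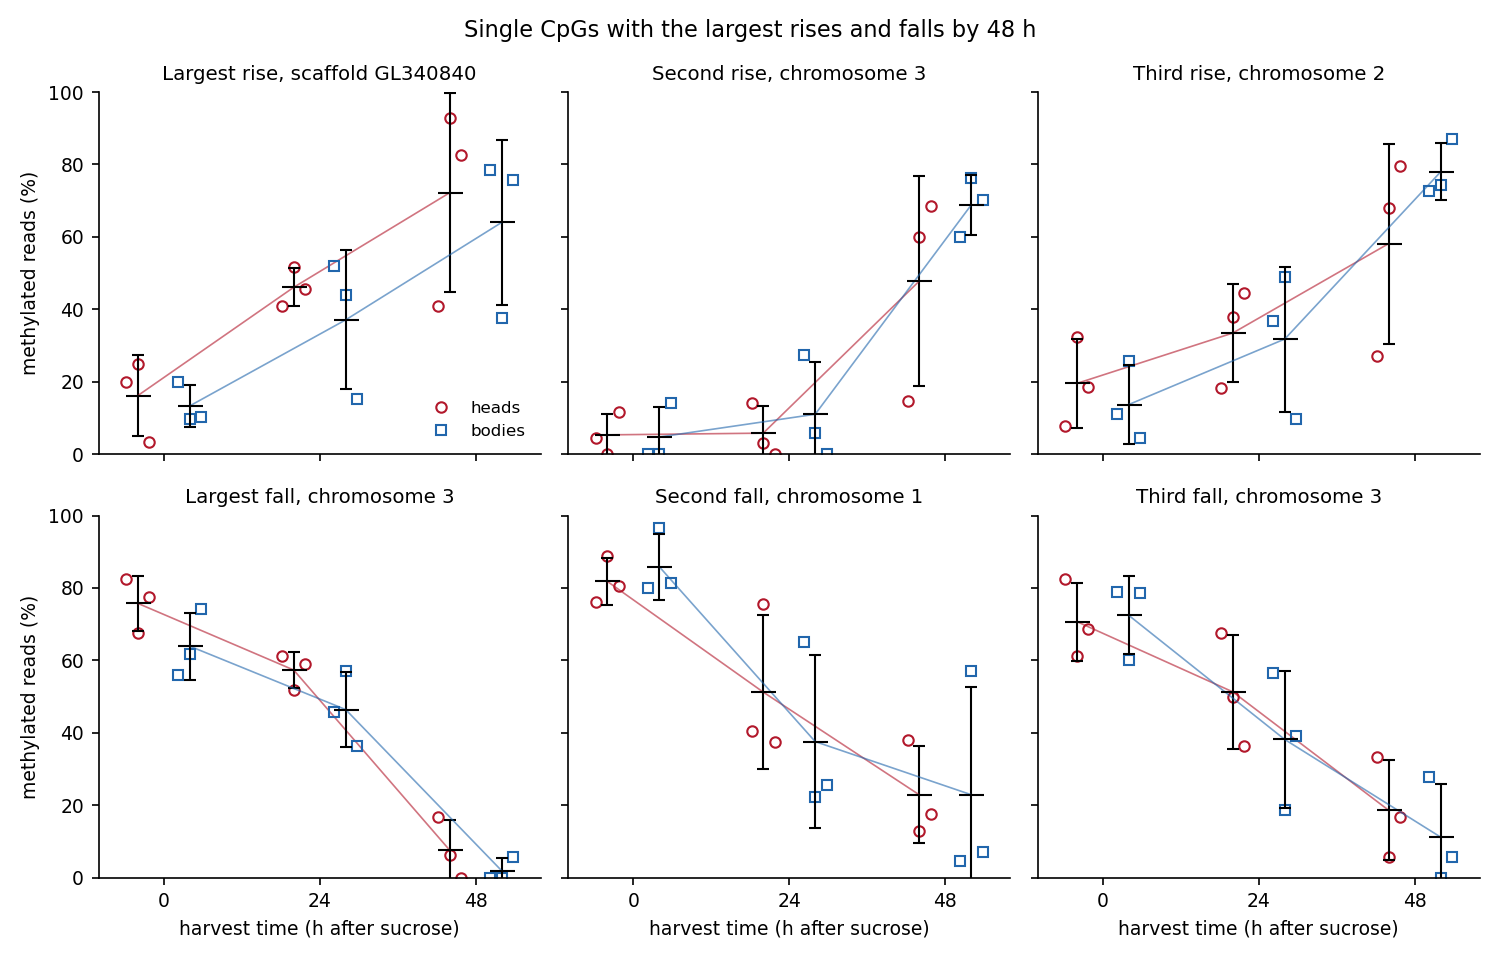
Methylated reads in percent in each sample against harvest time in hours, for the 3 single CpGs with the largest rises (top) and the 3 with the largest falls (bottom) among those called. Open symbols are samples (n = 3 per tissue and time), and black bars are means ± SD. Heads and bodies move in the same direction at each CpG.

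The other 33 samples were harvested at the same times after 5-aza-dC and share no sample with the sucrose course, so the same CpGs could be examined there. Feeding lasted 24 h in the sucrose course. In the regime of 48 h of 5-aza-dC, the length of feeding and the inhibitor therefore cannot be told apart. Of the 724 called CpGs, 138 had reads in all 51 samples. Their median 48 h minus 0 h difference in the direction seen in sucrose was 21.3 points in the sucrose samples, -4.81 points after 24 h of 5-aza-dC and 0.0955 points after 48 h of 5-aza-dC. The direction was that of sucrose at 48 of the 138 CpGs (34.8%) after 24 h of 5-aza-dC and at 70 (50.7%) after 48 h. Over all 8029 tested CpGs with reads in all samples, the shares were 50.8% and 49.2%. The 21.3 points in sucrose follow from the selection of these CpGs on the same samples. The 8029 were not matched to the 138 in level. In sucrose, the median absolute difference was 3.46 points at all tested CpGs of 10 to 20% and 6.98 points at those of 20 to 50%. After 24 h of 5-aza-dC, 12 of the 138 (8.70%) differed by over 20 points between 48 h and 0 h, against 0.797% of all 8029. After 48 h of 5-aza-dC, 14 (10.1%) did, against 0.897%. These counts carry no test.

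At clusters, 123 could be formed from CpGs with reads in all samples. The time course differed between the 3 regimes at 3 of them (2.44%). One was made of 5 of the 6 CpGs of the largest rise on chromosome 2, and averaged 52.4 ± 8.01, 62.8 ± 9.22 and 77.5 ± 5.11% at 0, 24 and 48 h in sucrose (SD, n = 6). It averaged 71.4 ± 4.24, 66.4 ± 11.3 and 70.4 ± 4.34% after 24 h of 5-aza-dC (SD, n = 5 or 6). After 48 h of 5-aza-dC it averaged 79.5 ± 5.78, 63.3 ± 13.9 and 68.9 ± 13.6% (SD, n = 5 or 6). The adjusted p for a difference in time course was 0.0244 by the quasi-binomial model. The other 2, on chromosome 5 (8005933 to 8006593) and on scaffold GL340812 (226730 to 227156), had means between 83.2 and 93.7% at every time and regime. Within sucrose, 2 of the 123 clusters differed among harvest times, with 0 after 24 h and 0 after 48 h of 5-aza-dC, by the quasi-binomial model. At an unadjusted p under 0.05 there were 17 clusters (13.8%) in sucrose, 18 (14.6%) after 24 h and 15 (12.2%) after 48 h of 5-aza-dC.

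The mean level of bodies was lowest at 0 h in all 3 regimes. At the 2496 methylated CpGs with reads in all samples, sucrose bodies averaged 80.3 ± 0.143, 81.1 ± 0.287 and 81.3 ± 0.335% at 0, 24 and 48 h (SD, n = 3). Bodies averaged 80.6 ± 0.951, 81.8 ± 0.956 and 81.4 ± 0.837% after 24 h of 5-aza-dC (SD, n = 3). After 48 h of 5-aza-dC they averaged 80.6 ± 0.518, 82.0 ± 0.332 and 82.0 ± 0.486% (SD, n = 3). Over the samples of the 5-aza-dC regimes alone, the 24 h minus 0 h difference in bodies was 1.33 points (exact permutation p = 0.01 with times exchanged within regime) and the 48 h minus 0 h difference was 1.09 points (exact permutation p = 0.035). Neither regime passed alone. The exact permutation p-values of these 2 differences were 0.2 and 0.4 after 24 h, and 0.1 and 0.1 after 48 h of 5-aza-dC. Each such test had 20 arrangements, which allow no p under 0.1. In the bodies of each 5-aza-dC regime, replicate 1 of every time has a title that gives another harvest time. Those samples were grouped by their characteristics and are included in these values. In heads of the 5-aza-dC regimes the same differences were 0.339 points (exact permutation p = 0.16) and 0.0469 points (exact permutation p = 0.92), against -0.108 and -0.425 points in sucrose heads. The gap between heads and bodies was smaller at 48 h than at 0 h by 1.45 points in sucrose (exact permutation p = 0.005), by 0.581 points after 24 h (exact permutation p = 0.575) and by 1.5 points after 48 h of 5-aza-dC (exact permutation p = 0.125). The change in sucrose did not pass a test of its difference from either regime, at -0.870 points from 24 h (exact permutation p = 0.444) and 0.047 points from 48 h of 5-aza-dC (exact permutation p = 0.969).

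**Figure D5:**
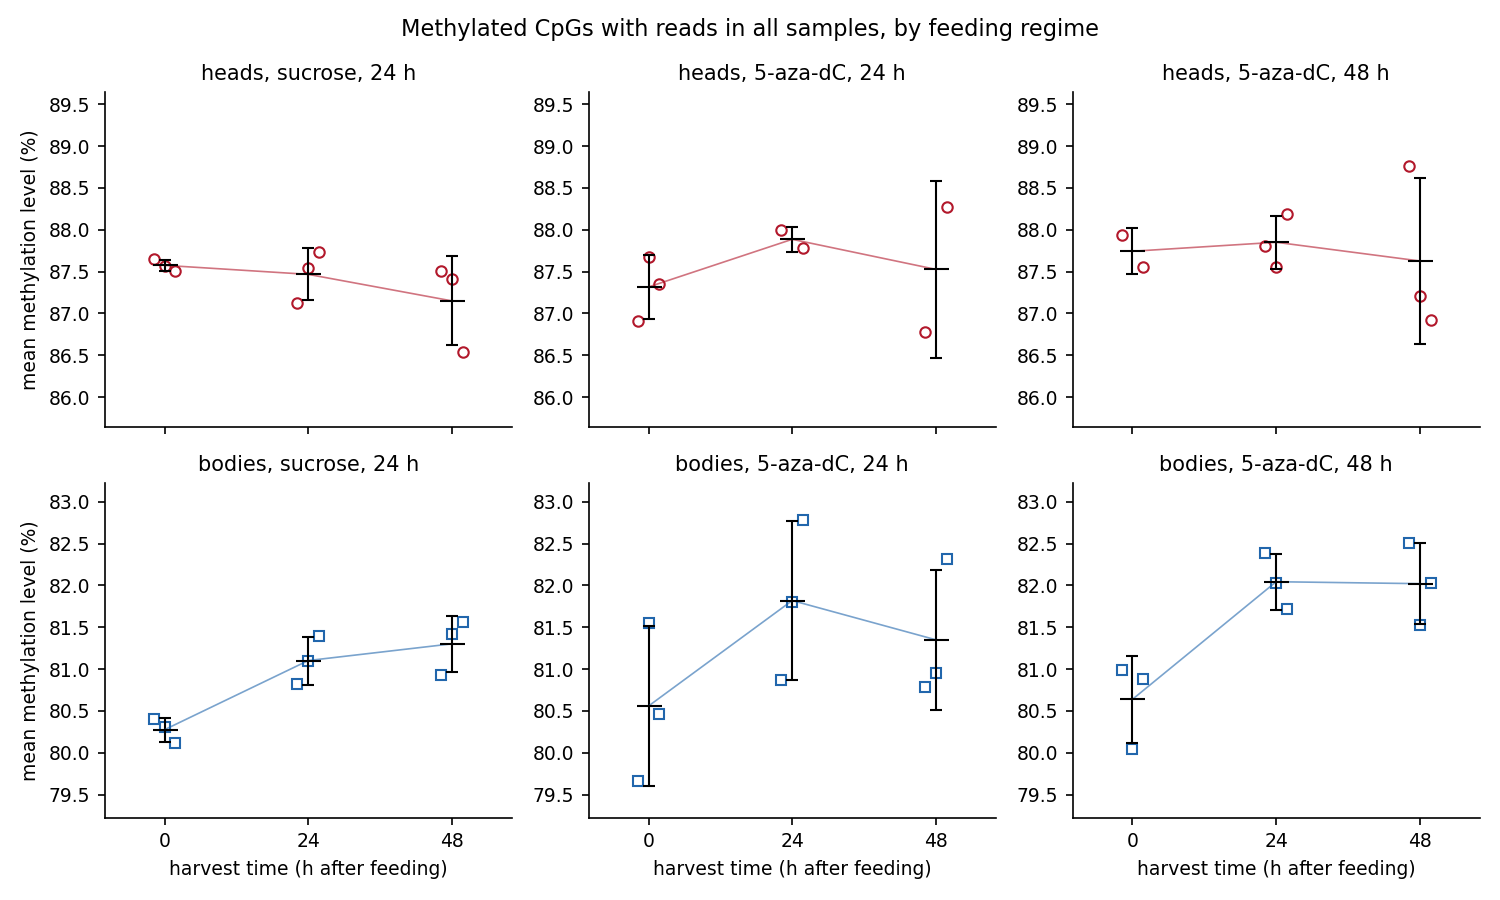
Mean methylation level in percent over the 2496 methylated CpGs with reads in all 51 samples, against harvest time in hours, for heads (top) and bodies (bottom) of females fed sucrose (left), 5-aza-dC for 24 h (middle) or 5-aza-dC for 48 h (right). Open symbols are samples, black bars are means ± SD (n = 2 or 3), and axes do not start at 0. In bodies the mean at 0 h is the lowest of the 3 times in each regime, while heads show no shared order.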

How the data were processed

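The authors deposited 1 table for all 51 samples, in which each value gives the methylated reads and the total reads of a CpG in a sample. These deposited counts are not normalized. Reads were processed with cutadapt 1.12, Bismark 0.16, Bowtie2, SAMtools and methylKit 0.99.3 in R 3.3.1, per the submitters' processing notes. The genome build and the removal of duplicate reads are not given in the sources used here. Incomplete bisulphite conversion raises a level, so the mean over CpGs with means under 2% was used as background. The members and comparisons were chosen with earlier results of these data known.

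Classes and clusters were set by the mean over the 18 sucrose samples. Mean levels and distances were tested with exact permutation tests that exchanged harvest times within tissue. Clusters and CpGs were tested with quasi-binomial logistic models of the counts, with dispersions moderated by squeezeVar of limma 3.58.1 in R 4.3.3. Benjamini-Hochberg adjustment ran over all features of a test, at a threshold of 0.05. Standard errors and intervals of differences come from a limma fit of 6 tissue and time means to the sample percentages, with moderated variances. That fit is separate from the quasi-binomial models, which gave the adjusted p-values printed beside the differences. The features named were the 3 largest rises and the 3 largest falls between 48 h and 0 h among those called, plus the 3 clusters with the most CpGs. Alternatives were limma on arcsine-square-root proportions, other read minimums, other cluster definitions, depth or background as a covariate, and leaving out samples. Replicate numbers follow the order of the samples. The labels call samples of a group biological replicates. Of 102702 CpGs, a pair of samples shared at most 4.68% with the same counts, so no samples were merged. Other steps used scipy 1.17.1, numpy 2.4.6 and pandas 2.3.3 under Python 3.11.15, with figures from matplotlib 3.10.9.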

Additional observations from a re-analysis of the deposited data

Results flagged for a closer look

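The change of the level between 48 h and 0 h was compared between heads and bodies by exact permutation tests of the difference itself. It differed with an unadjusted p under 0.05 in 3 classes of CpGs, and after adjustment over the classes in the 2 classes of 50% and above, which together make up the methylated CpGs. The change in heads minus that in bodies was -2.86 points at CpGs of 20 to 50%, -2.20 points at CpGs of 50 to 80%, -1.20 points at CpGs of 80% and above, and -1.49 points at all methylated CpGs. Background subtraction left the last value at -1.57 points.

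Among the 9 head samples, replicate 3 of 48 h had the lowest level at methylated CpGs, 86.4%, and its gap to the nearest sample was large for the range of the group. About 1 in 20 groups is marked so by chance. Without this sample, the change of heads minus bodies was -1.28 points and no cluster passed within heads.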

How the results depend on the processing

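No difference that passed a test changed sign under any alternative. Some differences that passed no test did, such as 48 h minus 24 h at CpGs of 80% and above, which was 0.152 points with background subtracted, against -0.108 points as reported. The heads minus bodies change of the methylated level between 48 h and 0 h was -1.47 to -1.72 points under the other settings and -1.64 to -1.28 points with 1 sample left out. The 24 h minus 0 h difference in methylated level no longer passed an unadjusted threshold with at least 10 reads in every sample (0.383 points), background subtracted (0.189), background removed from the unmethylated share (0.389) or the 3 body samples with other titles left out (0.526), and was 0.315 to 0.485 points with 1 sample left out. It also missed that threshold without head replicate 3 of 24 h, body replicate 3 of 24 h or any 1 body sample of 0 h. Clusters called for harvest time numbered 11 with limma, 9 of 845 with a gap of 100 bp, 8 of 661 with a mean of at least 80%, 14 of 272 with at least 10 CpGs, 15 of 562 with at least 10 reads in every sample, 20 with background as a covariate, and 20 to 39 with 1 sample left out. The 3 stricter definitions gave 551, 251 and 469 clusters that differed between heads and bodies, from fewer clusters tested. With limma, 1 cluster passed within heads and 2 within bodies, and with 1 sample left out these counts were 0 to 9 and 3 to 18. Single CpGs called for harvest time numbered 266 with limma, 109 of 3508 with a minimum of 20 reads and 252 of 10083 with a mean of at least 50%. Without a minimum mean, 369735 of about 2296300 tested CpGs with methylated reads passed, with a median dispersion below that of counting. Of the same tested CpGs, 1 passed once dispersions were not allowed below 1. With limma, 1037 CpGs differed between heads and bodies, 0 differed with time within heads and 3 within bodies. With 1 sample left out, 50 to 380 CpGs passed within heads and 189 to 370 within bodies. Causes of these changes were not tested, except that stricter definitions test fewer features. The removal of background from the unmethylated share, the dispersion floor without a minimum mean, and the alternatives of the heads minus bodies change, of the counts within 1 tissue and of the tissue counts at single CpGs were added after seeing the data. At a median of 24 reads per CpG, the median standard error of a 48 h minus 0 h difference was 4.78 points. No paired analysis was possible because replicate numbers follow sample order and pair no samples, and no label ties a head sample to a body sample.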
